A study of Mus musculus with 8 samples.

Results

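The transcription factor p53, encoded by Trp53 in the mouse, its regulators and the genes it is known to switch on were followed in C2C12 cells after silencing of the long non-coding RNA Pvt1. The set held 32 genes, chosen by symbol: Trp53, 3 regulators of p53 and 28 genes known as p53 targets in the cell cycle, cell death, DNA repair, stress and metabolism. All 32 gene names were found on the array, among 37074 gene names in all, and they were read by 67 of its 56605 probes. All 32 had at least 1 probe that could be tested, and 58 of the 67 probes were tested, beside 28649 probes in the whole series. Of the 32 brightest probes, 29 were well above background on all 8 arrays.

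C2C12 is a mouse myoblast line, and all samples were proliferating cells. The 4 silenced samples had received Lipofectamine 2000 with 2 antisense LNA GapmeRs against Pvt1, named Pvt1_1 and Pvt1_3. The 4 control samples, called Mock, had received the same reagent with negative control GapmeRs. A GapmeR is a short antisense oligonucleotide that directs RNase H to cut the RNA it pairs with. Each group was labelled as biological replicates 1 to 4, and nothing says whether the replicates came from separate cultures, so the p-values measure the spread between these samples. Because both GapmeRs were used as one treatment, their separate effects cannot be told apart. The GapmeR sequences are shown because they define the treated group, as the labels give them but in lower case.
Pvt1_1: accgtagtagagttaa
Pvt1_3: agtcaacgcttcacat

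In unstressed cells p53 is kept low by Mdm2, a ubiquitin ligase that marks it for degradation, and by Mdm4, which blocks its activity. DNA damage and other stresses release p53, which binds response elements made of paired decamers and raises transcription of genes that stop the cell cycle, repair DNA or lead to cell death. Mdm2 and the phosphatase Ppm1d are themselves targets and close the loop. Much of this control acts on the p53 protein, which an array of RNA does not measure. In muscle, p53 is known for roles in myoblast differentiation and in wasting.

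The best known target in the set is Cdkn1a, which encodes p21, an inhibitor of cyclin-dependent kinases that stops the cell cycle. Its promoter sequence is shown because the probes of this gene gave opposite results after silencing. RefSeq promoter windows (GRCm38.p6, 250 bases before to 50 bases after the start of transcription) were found for 25 of the 32 members. They were searched on both strands for exact matches to the p53 decamer RRRCWWGYYY (R: A or G, W: A or T, Y: C or T). This pattern reads the same on either strand. Pairs of 2 decamers separated by at most 13 bases were searched for too, with no mismatch allowed. A pair was found in 24 of 32851 promoter windows, or 0.0731%, and the only member window among them was the upstream start of Cdkn1a. The 250 bases before each of the 2 Cdkn1a starts are given 5′ to 3′ on the plus strand, with the decamers in capitals. The first lies at chr17:29090729-29090978 and holds the pair, from 73 to 42 bases before the start, with 12 bases between its decamers. The stretch directly after the second decamer, tgacatgttc, departs from the pattern only at its first base and so was not marked. The second lies at chr17:29093519-29093768 and holds none.
Cdkn1a upstream start: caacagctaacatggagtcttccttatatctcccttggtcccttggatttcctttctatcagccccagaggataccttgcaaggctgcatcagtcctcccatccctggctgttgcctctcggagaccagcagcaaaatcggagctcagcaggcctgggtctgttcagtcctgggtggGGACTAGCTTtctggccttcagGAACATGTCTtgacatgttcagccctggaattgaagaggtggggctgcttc
Cdkn1a downstream start: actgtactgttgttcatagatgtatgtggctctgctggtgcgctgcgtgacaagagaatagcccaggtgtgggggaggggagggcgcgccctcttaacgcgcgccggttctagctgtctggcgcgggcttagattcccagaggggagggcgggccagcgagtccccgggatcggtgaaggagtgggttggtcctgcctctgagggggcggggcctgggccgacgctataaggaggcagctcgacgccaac

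A single decamer was far more frequent: 8.36% of all promoter windows held at least 1, and 12 of the 40 member windows did, or 30.0%. By gene, 11 of the 25 members with a window had one, or 44.0%, where 9.55% of all 27025 genes did. Trp53inp1, Perp, Zmat3 and Tnfrsf10b, which rose after silencing, and Rrm2b, Ddb2 and Xpc were not matched to a window and were not searched. The windows of Psrc1, Gdf15, Ak1, Fas and Eda2r, which also rose, held no decamer. Among the members with a decamer, Ccng1 alone was called higher by its brightest probe. Decamers of Trp53 itself, its 2 feedback regulators and Ccng1 are printed with their flanks, each on the gene's own strand. They lie at chr11:69580274-69580303 on the plus strand for Trp53, chr10:117710925-117710954 on the minus strand for Mdm2, chr11:85311112-85311141 on the plus strand for Ppm1d and chr11:40755452-40755481 on the minus strand for Ccng1. Such matches describe letters in the sequence and do not show that p53 was bound there.
Trp53: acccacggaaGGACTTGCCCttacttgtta
Mdm2: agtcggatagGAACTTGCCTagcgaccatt
Ppm1d: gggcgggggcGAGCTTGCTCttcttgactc
Ccng1: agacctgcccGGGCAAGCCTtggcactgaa

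Expression was given as normalised log2 intensity, the brightness of a probe after background subtraction and quantile normalisation across arrays. A change is the silenced mean minus the control mean on that scale, so that a change of 1 is a doubling. A gene was called changed where limma's moderated test gave an adjusted p under 0.05 over all 28649 tested probes. Pvt1, the targeted RNA, fell by 2.86 (adjusted p = 0.00068, limma), from 9.86 ± 0.30 in control to 7.0 ± 0.63 in silenced samples (SD, n = 4 each). With normexp, a model-based background correction with an offset, it fell by 2.19 (adjusted p = 0.00018, limma). The median of all tested probes fell by 0.19, and this shift depended on the scaling: it was 0.02 under cyclic loess and 0.17 under a 75th percentile shift.

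Some facts of the libraries bear on every member. On silenced array 4, 51.6% of spots were positive and significant, against 58.8 to 62.5% on the other arrays. Without that array the median of all probes was -0.03. Control array 3 stood apart from the other controls for some genes, Trp53 among them. Markers of liver cells, which a myoblast culture should lack, were read on the silenced arrays: 9 of 10 such genes had a probe well above background on at least 3 silenced arrays and on no control array. Their summed linear level was 903 to 1746 in controls and 5051 to 6377 in silenced samples. Albumin (Alb) was at least 10.3-fold higher and the urinary protein gene Mup1 at least 25.0-fold higher in silenced samples, against the lowest signal well above background in controls. These were not all the liver probes: a brighter probe of Apoa2, counted among the 9, was read on all 8 arrays and differed by -0.15 (adjusted p = 0.82, limma), and no array read Apoc3's single tested probe well above background. Only Apoa1 was not well above background on any array. Myoblast markers moved too, with summed levels of 55596 to 57242 in control and 21083 to 35102 in silenced samples. Myod1, a muscle transcription factor, fell by 1.95, the muscle filament gene Des by 1.35 and the cadherin Cdh15 by 0.86. Cdh15 was not called under the 75th percentile shift, where its change was -0.26. Nor was it called with slide row or replicate number as a block, or without control 2 or 4. The other 3 myoblast markers were not called: Myog differed by 0.13 and Pax7 by 0.02, and Myf5 was not well above background on any array. The summed level of 4 fibroblast markers was 521 to 697 in control and 2954 to 3649 in silenced samples, carried by decorin (Dcn), higher by 2.49, and Pdgfra, higher by 0.73 (adjusted p = 0.047, limma; 0.17 with slide row as a block; of the single arrays left out in turn, only silenced 4 left the call standing), since no array read Lum or Thy1 well above background. The part of these shifts in the changes of the members was not tested.

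Of the 32 members, 10 rose and 2 fell after silencing, and 20 did not pass the test. The share that rose was 31.2%, where 5.99% of all 19360 genes with a tested probe rose (limma, each gene by its brightest probe). The share that fell was 6.25%, where 14.0% of all genes fell. The median change of the members was 0.46, and that of all genes was -0.09. In 11 members every silenced value lay above every control value, or 34.4% of them, where 7.1% of all genes did so. Only Pltp had every silenced value below every control value, where 18.9% of all genes did. The genes that rose belonged to cell death (6 of 10), the cell cycle (2 of 6) and stress and metabolism (2 of 8). Of the 4 DNA repair genes 0 passed the test (limma), and 0 had an unadjusted p under 0.05.

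**Figure D1:**
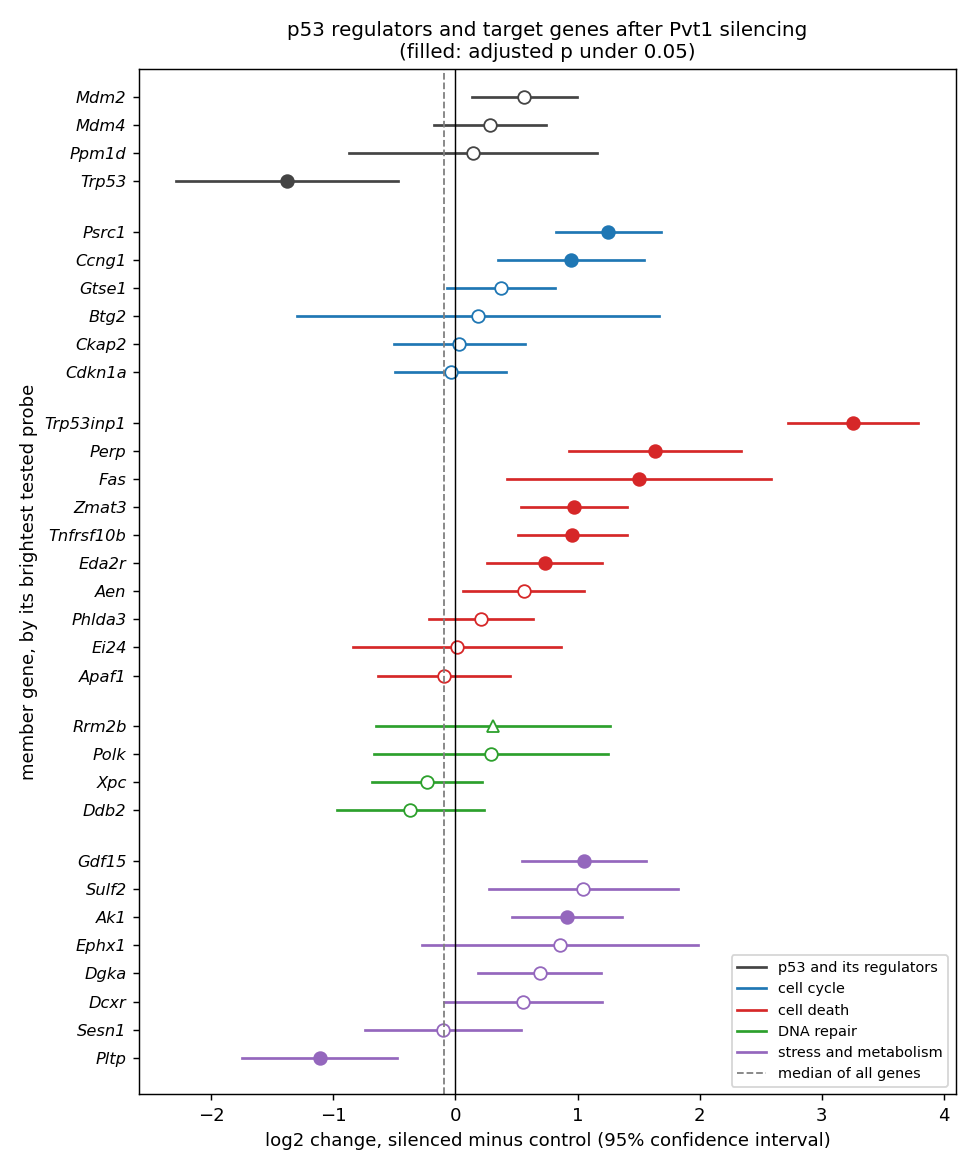
Change of each of the 32 members by its brightest tested probe (x axis: log2 change, silenced minus control; bars: 95% confidence interval; 4 arrays a group), coloured by role. Filled points passed limma's test over all probes, and the triangle marks Rrm2b, not well above background in control. Trp53inp1 stood farthest right at 3.26 and Trp53 farthest left at -1.38, and the dashed line marks the median of all genes, -0.09.

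Among p53 and its regulators, the RNA of p53 itself was lower in silenced samples. Trp53 was read by 1 probe, at chr11:69403134-69403193 of mm9. The control arrays 1 to 4 read 12.28, 12.67, 10.73 and 12.57, and the silenced arrays 10.79, 11.02, 10.42 and 10.52. The other controls were thus more than a log2 unit above every silenced array, while control 3 lay among those values. The gene fell by 1.38 (95% interval -2.28 to -0.47, adjusted p = 0.036, limma). This call did not hold under cyclic loess (adjusted p = 0.060), the 75th percentile shift (adjusted p = 0.058), with dim spots left unmasked (no mask; adjusted p = 0.14), in the deposited table of processed values (the series table; adjusted p = 0.13), with slide row as a block (adjusted p = 0.079), without silenced array 4 (adjusted p = 0.060) or without any other single array except control 3, and without control 3 the gene fell by 1.81 (adjusted p = 0.0013).

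Mdm2, the ubiquitin ligase of p53 and a target of it, was read by 2 probes of very different brightness. Its 3′ probe read 13.77, 14.02, 14.08 and 14.03 in control and 14.53, 14.63, 14.74 and 14.25 in silenced samples. The groups did not overlap, yet the change of 0.56 (95% interval 0.13 to 1.00) missed the threshold (adjusted p = 0.062, limma). It passed under cyclic loess, at 0.78 (adjusted p = 0.0016), and without silenced array 4, at 0.66 (adjusted p = 0.018). The 5′ probe, which spans a splice junction in the file's coordinates, rose by 1.18 (adjusted p = 0.019, limma), a call lost with slide row as a block (adjusted p = 0.080), without control 1 and without silenced 1 or 3. On this dim probe the controls lay between 7.72 and 8.34, the first 3 silenced arrays between 9.38 and 9.59, and silenced array 4 at 8.37.

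Neither of the other 2 regulators passed the test by its brightest probe. Mdm4, the inhibitory partner of Mdm2, read 9.21 ± 0.21 in control and 9.50 ± 0.22 in silenced samples (SD, n = 4), a difference of 0.28 (95% interval -0.17 to 0.74). Ppm1d, a phosphatase that switches off p53 and its kinases, differed by 0.14 (95% interval -0.87 to 1.16). A second Ppm1d probe, 1107 bases upstream, read lower on every silenced array, by 0.80 (95% interval -1.37 to -0.22, adjusted p = 0.05002, limma, just over the threshold).

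Cell death genes held the largest change of the set. Trp53inp1 encodes a p53-inducible nuclear protein that acts in cell death and autophagy. Its probe, at chr4:11101174-11101233 of mm9, read 6.80, 7.21, 6.56 and 7.33 on the control arrays and 10.31, 10.22, 10.50 and 9.89 on the silenced arrays. Every silenced array was well over 2 log2 units above every control. The gene rose by 3.26 (SE 0.24, 95% interval 2.72 to 3.79, adjusted p = 0.00014, limma), a 9.55-fold difference. The size depended on the processing: the log2 change was 2.55 with normexp, a model-based background correction with an offset, and 3.61 under cyclic loess, and it was called under both.

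Perp, a membrane protein of cell junctions that takes part in p53-dependent death, read 5.89, 6.50, 6.91 and 6.56 in control and 8.38, 8.05, 8.58 and 7.37 in silenced samples. It rose by 1.63 (SE 0.31, adjusted p = 0.0063, limma) without overlap between the groups, and by 1.04 with normexp background correction (adjusted p = 0.0072). Zmat3, a zinc finger protein that binds RNA, read 10.08, 10.05, 10.18 and 10.26 in control and 11.19, 11.14, 11.35 and 10.78 in silenced samples. Its rise was 0.97 (SE 0.19, adjusted p = 0.0073, limma), with control arrays spread over about 0.2 units. In both genes silenced array 4 was the lowest of its group and still above all controls.

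The 3 cell-surface receptors of the tumour necrosis factor receptor family in the set rose together. Tnfrsf10b, the mouse receptor for the death ligand TRAIL, read 10.73, 10.98, 11.11 and 11.04 in control and 12.04, 11.94, 12.11 and 11.59 in silenced samples. Its change was 0.96 (SE 0.20, adjusted p = 0.0089, limma). Its 2 dimmer probes gave 0.39 and 0.76 and were not called. Eda2r, the receptor of ectodysplasin A2, rose by 0.73 (SE 0.21, adjusted p = 0.034, limma), from 8.54 to 8.85 over the controls to 9.02 to 9.72 over the silenced arrays. Fas, the receptor of Fas ligand, read 4.75, 4.75, 6.51 and 5.12 in control and 6.81, 6.55, 7.84 and 5.94 in silenced samples. It rose by 1.5 (SE 0.48, adjusted p = 0.049, limma), but the groups overlapped through control 3 and silenced 4, and the probe was well above background on 1 control and 3 silenced arrays. With normexp background correction its change was 0.58 and the call was lost (adjusted p = 0.091). The calls of Fas and Eda2r were both lost without control array 1, 2 or 4 and without silenced array 1, 2 or 3, and with slide row as a block their adjusted p was 0.12 and 0.11. A further Fas probe lies at a chr4 position in the file, away from the gene on chr19, and no control array read it well above background. Of the silenced arrays, 2 read it well above background and silenced 1 gave no value. The groups overlapped, and this probe was not called (adjusted p = 0.14, limma).

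The remaining 4 death genes did not pass by their brightest probe. Aen, an exonuclease that acts in apoptosis, read 13.43 ± 0.23 in control and 13.99 ± 0.30 in silenced samples (SD, n = 4), a difference of 0.56 (adjusted p = 0.097, limma). A neighbouring Aen probe, starting 10 bases away, was called at 0.66 (adjusted p = 0.047), but not with slide row as a block (adjusted p = 0.15), nor without control 1, 2 or 4 or silenced 1, 2 or 3. Phlda3, which opposes the kinase Akt, differed by 0.21 (95% interval -0.22 to 0.64) from an already high control level of 14.99 ± 0.22. Apaf1, the scaffold of the apoptosome, differed by -0.09 (95% interval -0.64 to 0.45). Ei24, a membrane protein of the endoplasmic reticulum, differed by 0.01 (95% interval -0.84 to 0.87), with control array 3 at 9.32 and the other controls between 10.72 and 11.03.

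In the cell cycle group, Psrc1 and Ccng1 rose. Psrc1, a microtubule-binding protein of the spindle, read 9.65, 9.80, 9.91 and 9.94 in control and 11.14, 11.09, 11.28 and 10.79 in silenced samples. Its rise of 1.25 (SE 0.19, adjusted p = 0.0024, limma) was several times the spread within either group. Ccng1, cyclin G1, an early p53 target that recruits a phosphatase to Mdm2, read 12.08, 12.26, 11.15 and 12.20 in control and 12.97, 12.87, 12.93 and 12.70 in silenced samples. It rose by 0.94 (SE 0.27, adjusted p = 0.031, limma). Without the low control 3 its rise was 0.69 (adjusted p = 0.029), whereas the call was lost without control 1 or 4, without silenced 1, 2 or 3 and with slide row as a block (adjusted p = 0.12).

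**Figure D2:**
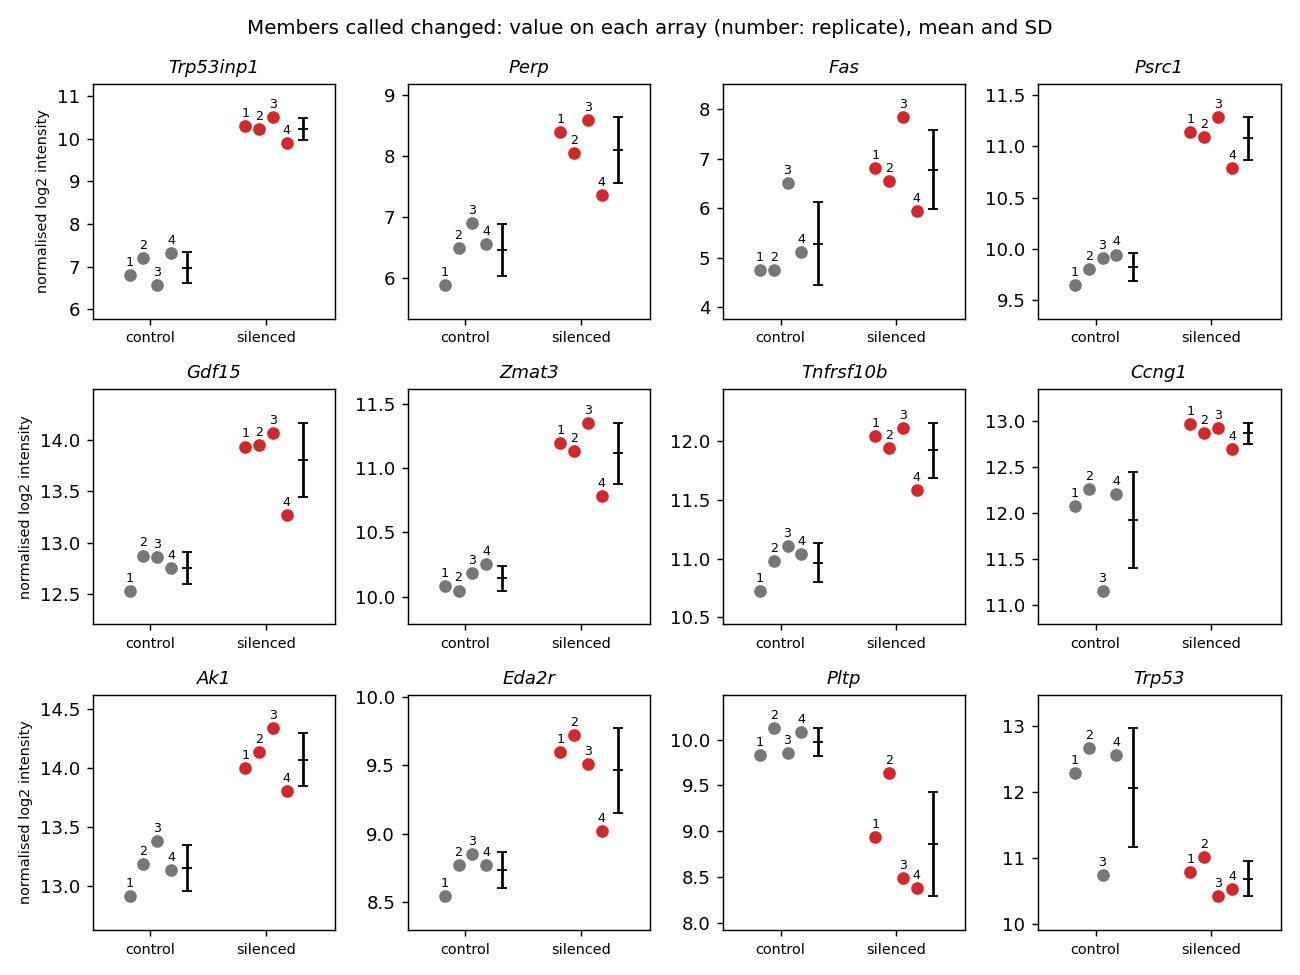
Normalised log2 intensity (y axis, not from 0) of the 12 members that passed the test, on each of 4 control and 4 silenced arrays (numbers: replicate), with mean and SD beside the points. Groups overlap only in Fas and Trp53, through control array 3 in both, and silenced array 4 is the lowest silenced array in 11 of the 12 genes.

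Cdkn1a gave 3 different answers at 3 probes, and the brightest of them did not pass the test. This one, near the 3′ end at chr17:29237377-29237436 of mm9, read 13.31, 13.55, 13.72 and 13.55 in control and 13.41, 13.79, 13.21 and 13.58 in silenced samples. The groups lay over each other, with a difference of -0.04 (95% interval -0.49 to 0.42). A probe 9391 bases upstream, at chr17:29227986-29228045 and assigned to another Cdkn1a transcript, read 4.23, 4.41, 4.33 and 4.91 in control, none well above background. On silenced arrays 2, 3 and 4 it read 7.95, 7.44 and 6.79. The spot of silenced array 1 was well above background but was left out because the scanner software marked it as not uniform. This probe was at least 2.53-fold higher in silenced samples (adjusted p = 0.00081, limma). Its fitted log2 change was 1.17 with normexp, less than this bound, and 3.68 in the series table, and it was called in both. Another probe between them, at chr17:29235299-29235358, was lower in silenced samples, at least 1.12-fold (adjusted p = 0.0097, limma), with no silenced array giving a signal well above background. The probe positions are in mm9 and the promoter windows in GRCm38.p6, and neither was converted to the other.

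Btg2, an antiproliferative p53 target, also differed between its probes. Its brightest probe read 8.67, 9.11, 8.34 and 9.0 in control and 9.63, 9.92, 9.74 and 6.58 in silenced samples. The first 3 silenced arrays were above every control and array 4 was below them all, so that the change was 0.19 (adjusted p = 0.87, limma) with array 4 and 1.00 (adjusted p = 0.013) without it. The 5′ probe of Btg2, 1734 bases away, read 8.92 to 9.35 on the silenced arrays, array 4 included, and 6.04 to 7.94 in controls. It rose by 1.83 (adjusted p = 0.011, limma), and with slide row as a block this call was lost (adjusted p = 0.055).

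The other 2 cell cycle members, both linked to microtubules, were not called. Gtse1, which is expressed in G2 and restrains p53, differed by 0.37 (95% interval -0.07 to 0.82). Ckap2, a spindle protein, differed by 0.03 (95% interval -0.51 to 0.57) between 12.25 ± 0.37 and 12.28 ± 0.24 (SD, n = 4).

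In DNA repair, the intervals of the 3 genes measured in both groups included 0. Polk, a polymerase that copies past damaged bases, differed by 0.29 (95% interval -0.66 to 1.25). Rrm2b, a subunit of ribonucleotide reductase, was well above background on 1 of the 8 arrays only, a silenced one, so that no difference is given. Ddb2 and Xpc, which recognise damage for nucleotide excision repair, differed by -0.37 (95% interval -0.97 to 0.23) and -0.23 (95% interval -0.69 to 0.22). In this group a doubling was outside the interval for Ddb2 and Xpc and within it for Polk.

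Among stress and metabolic targets, Gdf15 and Ak1 rose. Gdf15, a cytokine secreted under mitochondrial and other stress, read 12.54, 12.88, 12.86 and 12.75 in control and 13.94, 13.95, 14.07 and 13.27 in silenced samples. It rose by 1.05 (SE 0.23, adjusted p = 0.010, limma). Ak1, an adenylate kinase that balances adenine nucleotides and is abundant in muscle, read 12.92, 13.19, 13.38 and 13.14 in control and 14.00, 14.14, 14.34 and 13.81 in silenced samples. Its rise was 0.91 (SE 0.20, adjusted p = 0.011, limma). Neither gene's groups overlapped, but the call of Ak1 was lost with slide row as a block (adjusted p = 0.064).

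Pltp, a phospholipid transfer protein of plasma lipoproteins, moved the other way. It read 9.83, 10.12, 9.85 and 10.08 in control and 8.94, 9.63, 8.49 and 8.38 in silenced samples. The gene fell by 1.11 (SE 0.28, adjusted p = 0.021, limma). This call was lost without control 2, without control 4 or without silenced 3, with slide row as a block (adjusted p = 0.077), with no mask (adjusted p = 0.070) and in the series table (adjusted p = 0.065).

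The other 5 genes of this group did not pass the test. Ephx1, an epoxide hydrolase abundant in liver, read 13.33, 13.36, 13.92 and 13.62 in control and 14.87, 14.96, 15.18 and 12.65 in silenced samples. As for Btg2, silenced array 4 was below all controls and the other 3 were above them, with a change of 0.86 (adjusted p = 0.25, limma) and, without array 4, of 1.45 (adjusted p = 0.0025). Sulf2, a sulfatase of heparan sulfate chains, read 7.20, 7.33, 8.35 and 7.80 in control and 8.94, 9.0, 9.07 and 7.87 in silenced samples, a difference of 1.05 (adjusted p = 0.054, limma) that was called without silenced 4 (adjusted p = 0.011) or without control 3 (adjusted p = 0.022). Dcxr, a carbonyl and xylulose reductase also abundant in liver, had 4 tested probes with changes from 0.19 to 0.79, none called. Probes of 9 of 10 liver markers were read on silenced arrays alone, though the brighter Apoa2 probe was not called, and the part of such transcripts in the values of Ephx1 and Dcxr was not tested. Sesn1, a sestrin that restrains mTORC1, differed by -0.10 (95% interval -0.74 to 0.54).

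Dgka, the alpha isoform of diacylglycerol kinase, differed in sign between a pair of its probes. Its 3′ probe read 10.44, 10.81, 11.31 and 10.77 in control and 11.52, 11.66, 11.58 and 11.33 in silenced samples, a difference of 0.69 (adjusted p = 0.051, limma). The 5′ probe, 2294 bases away, read 9.14, 9.46, 9.51 and 9.57 in control and 8.70, 9.12, 8.52 and 7.90 in silenced samples and fell by 0.86 (adjusted p = 0.046, limma). This call was lost with slide row as a block (adjusted p = 0.14), without control 3 (adjusted p = 0.074) and without any other single array except silenced 2 or 4. On every silenced array the 5′ probe stood lower against the 3′ probe than on any control: by -2.96 ± 0.38 against -1.41 ± 0.26 (SD, n = 4, p = 0.029, exact two-sided permutation test; 0.080 after adjustment over 14 genes).

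Differences between probes of one gene were therefore examined in all 14 members with at least 2 tested probes on the gene's chromosome. Over all member probes, 14 were called higher and 5 lower, where 4.79% of all tested probes were called higher and 18.4% lower. In 11 of the 14, both outermost probes were well above background on at least 1 array of each group; Cdkn1a, Mdm4 and Ei24 lacked such a pair. Between the outermost probes, 4 of the 11 reached the smallest p that 8 arrays allow (p = 0.029, exact two-sided permutation test): Aen, Btg2, Dcxr and Dgka. None passed after adjustment over the 14 genes (adjusted p = 0.080). The 5′ probe changed more towards a fall in 6 of the 11 and more towards a rise in the other 5, with a median difference of -0.17. In Aen the extremes were intermixed: the brightest probe and its neighbour were higher by 0.56 and 0.66, while a probe 2557 bases further 3′ was lower by 1.61 (adjusted p = 0.077, limma) and, without silenced array 4, was called lower by 0.91 (adjusted p = 0.0095). A probe 298 bases from the brightest differed by -0.55 with no overlap of the groups and was not called (adjusted p = 0.10, limma). A 5′ probe of Ei24 was at least 1.27-fold lower in silenced samples (adjusted p = 0.012, limma, n = 3 in each group, since control 3 and silenced 4 gave no value), with no silenced array well above background, and was not called with normexp, with no mask, in the series table or with the replicate number as a block, while the 3′ probe differed by 0.01.

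**Figure D3:**
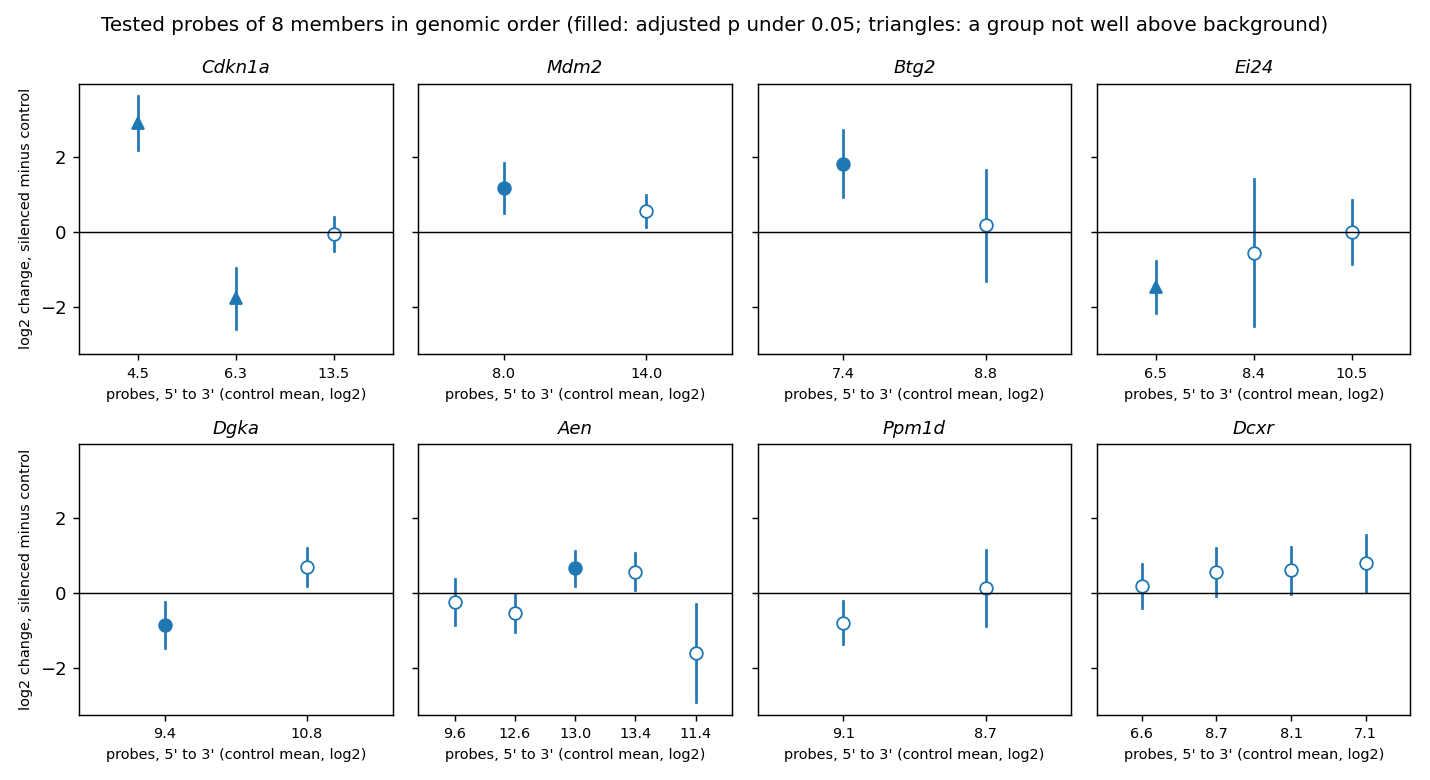
Change at each tested probe (y axis: log2 change, silenced minus control; bars: 95% confidence interval) of 8 members, ordered 5′ to 3′ along the gene, each labelled with its control mean. Filled points passed limma's test, and triangles mark probes well above background on no array of one group, whose plotted height is not a measured change. In Dgka the 2 probes read -0.86 and 0.69, and in Btg2 1.83 and 0.19.

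The number of members called differed between settings. Under cyclic loess 16 members were called higher and 1 lower, where 22.1% of all genes were called higher and 14.3% lower. Without silenced array 4, 16 were called higher and 1 lower, beside 14.9% and 13.6% of all genes. Without control array 3, 12 were called higher and 2 lower, beside 7.33% and 14.8% of all genes. The median change of the members was above that of all genes in each of these: 0.67 against 0.11, 0.69 against 0.07 and 0.52 against -0.06. Without both silenced array 4 and control array 3, 20 were called higher and 2 lower, beside 21.7% and 17.8% of all genes. The slide rows were unbalanced, with 3 controls in row 1 and 3 silenced samples in row 2. With slide row as a block, 6 members were called higher and 0 lower (limma), beside 2.41% and 5.97% of all genes, and 2 members were lower at an unadjusted p under 0.05. Trp53, Pltp, Ak1, Ccng1, Eda2r and Fas lost their calls there. Trp53inp1, Perp, Zmat3, Psrc1 and Gdf15 were called higher under all 22 alternatives.

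**Figure D4:**
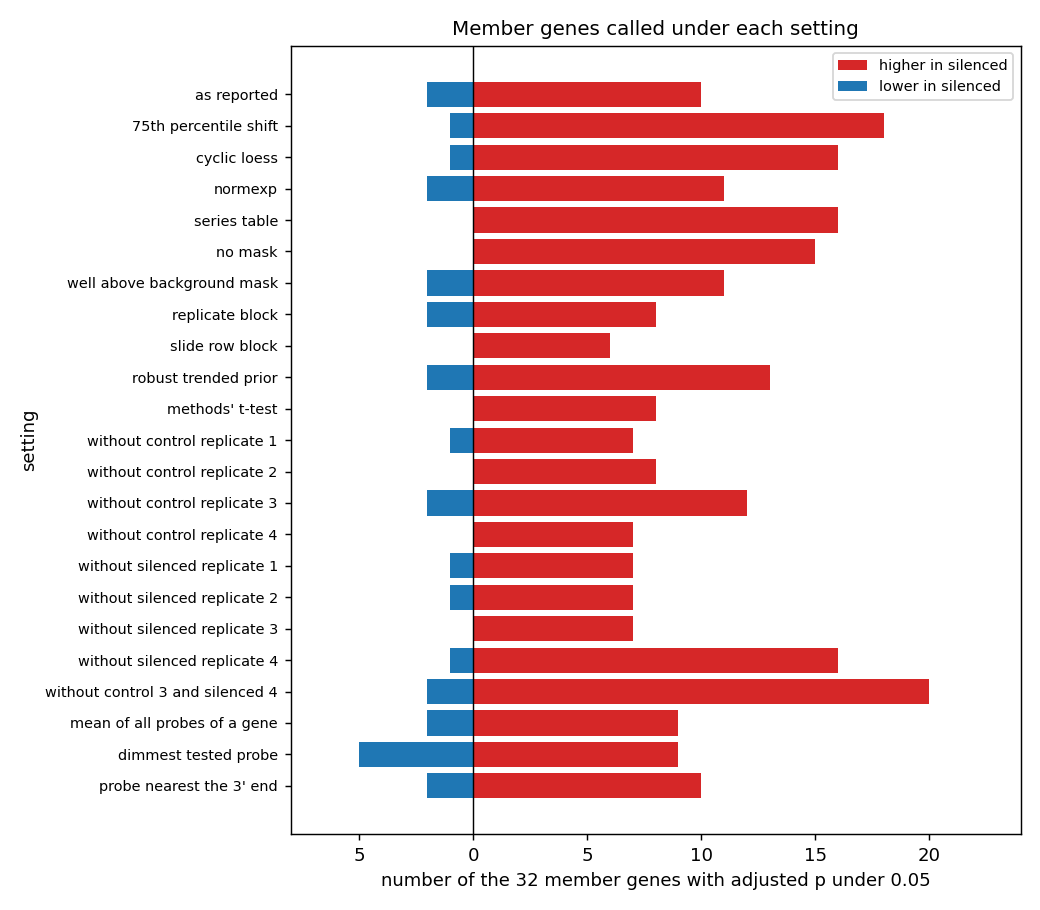
Number of the 32 members called at adjusted p under 0.05 (x axis) as reported and under 22 alternatives, with genes higher in silenced samples to the right and lower to the left. The count called higher ranges from 6 with slide row as a block to 20 without control array 3 and silenced array 4, where 2.41% and 21.7% of all genes were called higher.

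Of 25 further p53 targets, 21 had a tested probe: 2 rose, or 9.52%, and 1 fell, or 4.76%, where 5.99% of all genes rose and 14.0% fell. Their median change was 0.06, beside -0.09 for all genes. Those that rose were Sfn, the cell cycle inhibitor 14-3-3 sigma (1.34, adjusted p = 0.012, limma), and Pidd1, the death-domain scaffold of the PIDDosome (1.22, adjusted p = 0.024). Plk3, a stress kinase, fell by 0.98 (adjusted p = 0.0085, limma). With slide row as a block the calls of Pidd1 (adjusted p = 0.091) and Plk3 (adjusted p = 0.053) were lost, and that of Pidd1 also without control 1, 2 or 4 and without silenced 1 or 3. The death effectors Bax, Bbc3 and Pmaip1 gave -0.01, 0.48 and -0.02 by their brightest probes and were not called.

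Upstream of p53, 18 of 19 genes had a tested probe, 0 rose and 5 fell (limma; 1 was higher at an unadjusted p under 0.05), with a median change of -0.39. The 5 that fell were 27.8% of them, beside 14.0% of all genes, and 5.99% of all genes rose. Hipk2, a kinase that phosphorylates p53, fell by 1.44 (adjusted p = 0.0030, limma), and Crebbp, an acetyltransferase coactivator, by 1.31 (adjusted p = 0.0032). Trp63, a relative of p53, fell by 1.09 (adjusted p = 0.017, limma) and Atm, the kinase that reports DNA breaks, by 1.04 (adjusted p = 0.015). With slide row as a block both calls were lost (adjusted p = 0.063 and 0.081), as they were without control 4 and, for Trp63, without control 2. Trp73, another relative, was at least 1.41-fold lower (adjusted p = 0.0053, limma), with no silenced array well above background. Of 12 cell cycle genes repressed downstream of p53 through the DREAM complex, 0 rose (limma; also 0 at an unadjusted p under 0.05) and 2 fell: Top2a, the DNA topoisomerase, by 1.11 (adjusted p = 0.0052) and Ccnb1, cyclin B1, by 0.63 (adjusted p = 0.031, limma). The call of Ccnb1 was lost under the 75th percentile shift (adjusted p = 0.65) and with slide row or replicate number as a block (adjusted p = 0.11 in each). It was also lost without control 1, 2 or 4 and without silenced 1 or 2. The 2 that fell were 16.7% of the list, close to the 14.0% of all genes. The list's median change was -0.40, beside -0.09 for all genes. The members and these lists share the same 8 arrays, so their values are not independent of each other.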

How the data were processed

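RNA of 4 silenced and 4 control samples was labelled with Cy3 and hybridised to mouse Agilent 1-colour arrays, all on 1 slide and scanned once. Per the file headers the scanner files hold spot intensities after background subtraction, from Feature Extraction 12.0.0.7, where the labels name 10.7.3.1, with coordinates in mm9; quality flags, of a kind other than intensities, were deposited beside them. The deposited series table, the authors' normalised intensities, was put on the log2 scale and served as an alternative.

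Following the study's methods, spots that were not positive and significant were masked, arrays were quantile normalised on the log2 scale and spots of one probe averaged; spots marked as outliers were left out too. Probes with at least 3 values in each group were tested with limma 3.58.1 in R 4.3.3 (two-sided, Benjamini-Hochberg over all 28649 probes, threshold 0.05), on group only. On simulated data of the same 28649 probes, 200 of them changed, 52% of changes of 2 log2 units and 6% of changes of 1 log2 unit were recovered. In the data 1373 probes were called higher and 5269 lower. With fewer changed probes the adjustment is stricter, so these shares do not give the share recovered in the data. The number of arrays limits the precision.

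All 32 members are named by their brightest tested probe, with every further probe whose call differs; from each other list up to 3 called changes in each direction are named, and Bax, Bbc3, Pmaip1, Atm, Trp63 and the marker values were added after values were seen. The members and lists were chosen with earlier results of these data known, and liver genes were listed because earlier results had shown them. Exact permutation tests (scipy 1.17.1) compared probes of one gene. Where no array of a group read a probe well above background, the bound used, on each array, the lowest signal among probes well above background. Alternatives covered the scaling, the mask, normexp with an offset of 50, the series table, the replicate number or slide row as a block, the prior, the methods' t-test, the choice of probe and leaving out arrays. Slide rows were unbalanced, with 3 controls in row 1 and 3 silenced samples in row 2. Unused columns of samples numbered 0.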

Additional observations from a re-analysis of the deposited data

Results flagged for a closer look

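Among the brightest probes of the members, 64 groups of 4 arrays were examined for an array far from the other 3, and 7 stood out, where chance alone marks about 1 in 20 groups. The value given is the gap to the nearest array divided by the range of the group, and Dixon's limit at the 95% level was applied. Silenced array 4 was the lowest of its group in 4 cases: Btg2 (0.914, at 6.58 where the others lay between 9.63 and 9.92), Ephx1 (0.875, 12.65 against 14.87 to 15.18), Sulf2 (0.886, 7.87 against 8.94 to 9.07) and Gdf15 (0.835, 13.27 against 13.94 to 14.07). Control array 3 was the lowest control for Ccng1 (0.836, 11.15 against 12.08 to 12.26) and the highest for Ckap2 (0.887, 12.80 against 12.02 to 12.11). Control array 1 was the lowest for Mdm4 (0.915, 8.90 against 9.30 to 9.34). Silenced array 4 also had the smallest share of positive and significant spots, 51.6%, and the part of this in its low values was not tested.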

How the results depend on the processing

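Across the 22 alternatives, members called changed kept their direction in all 263 fits and lost the call in 53 of them. Trp53 lost it in 13, Eda2r in 12, Fas in 10 of 21, Ccng1 in 8, Pltp in 7, Tnfrsf10b in 2 and Ak1 in 1. The cause was not tested.

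The counts differed between settings. Over all probes, where 1373 were called higher and 5269 lower (20.7% of calls higher), 7135 were called higher under the 75th percentile shift (62.4%), 5416 under cyclic loess (50.7%), 4990 with no mask (51.0%) and 4509 in the series table (50.3%). Members called higher, 10 as reported, numbered 18 under the percentile shift, 16 under loess and 16 in the series table. Members called lower, 2 as reported, numbered 1 under the percentile shift, 1 under loess, 0 with no mask, 0 in the series table and 5 by the dimmest probe. With slide row as a block, 534 probes were called higher and 2572 lower, and 6 members higher and 0 lower. The t-test with unequal variances called 566 probes higher and 2854 lower after adjustment. It called 0 members lower, with 1 at an unadjusted p under 0.05. Limma with the slide row block, with no mask and on the series table each had 2 members lower at an unadjusted p under 0.05. The t-test lost the calls of Trp53, Ccng1, Fas, Eda2r and Pltp, and of a further probe of each of Mdm2, Cdkn1a, Ei24, Aen, Btg2 and Dgka. Outside the members it lost those of Sfn, Pidd1, Atm, Trp63, Trp73 and Pdgfra. Leaving out control 3 and silenced 4 together gave 5341 probes higher and 20 members higher. Leaving out single arrays gave 684 to 3572 probes higher, 2995 to 5737 lower, 7 to 16 members higher and 0 to 2 lower; only leaving out silenced 4 raised the members called higher by more than 1.5 times, to 16. Members called lower numbered 1 without control 1 or without silenced 1, 2 or 4, 0 without control 2, control 4 or silenced 3 (limma; 2 at an unadjusted p under 0.05 each), and 2 without control 3.

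The same-numbered control and silenced arrays had correlated deviations of -0.04, 0.19, 0.22 and 0.06 (numbers 1 to 4), so the numbers were not taken as pairs, and only numbers 2 and 3 correlated best with their own number. With replicate number as a block, 1023 probes were called higher and 3994 lower, and 8 members higher and 2 lower.

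Reversals occurred only in members not called as reported, and none was called in its new direction except Dgka and Ei24 by the dimmest probe. Apaf1, Cdkn1a, Sesn1 and Xpc became 0.17, 0.53, 0.19 and 0.025 under the percentile shift, 0.13, 0.18, 0.057 and 0.0084 under loess, 0.17, 0.15, 0.13 and 0.034 with no mask, and 0.17, 0.12, 0.12 and 0.041 in the series table. By the dimmest probe, Aen, Dgka, Ei24, Ppm1d and Xpc became -0.24, -0.86, -1.46 (a probe not well above background in silenced samples), -0.80 and 0.19. With all probes of a gene averaged, Aen, Cdkn1a, Dgka, Ei24 and Ppm1d became -0.24, 0.96, -0.083, -0.43 and -0.33, and by the probe nearest the 3′ end Aen became -1.61. Ei24 became -0.075 with the slide row block, and Ckap2 and Ei24 became -0.020 and -0.049 under the stricter mask. Without control 3 and silenced 4, Apaf1, Ei24 and Sesn1 became 0.16, -0.23 and 0.29. Leaving out one array in turn gave changes on both sides of 0 for Ckap2 (-0.056 to 0.22), Ei24 (-0.38 to 0.18), Btg2 (-0.13 to 1.0), Apaf1 (-0.24 to 0.044), Cdkn1a (-0.14 to 0.058), Sesn1 (-0.23 to 0.13), Polk (-0.0080 to 0.75) and Ppm1d (-0.20 to 0.61).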
